A study of Rattus norvegicus with 12 samples.

Results

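The respiratory chain and ATP synthase genes are the nuclear genes for the subunits of complexes I to V, with their closest relatives, measured here in long bone of female rats. They were taken by symbol, as probe sets that carry a single gene symbol beginning with Nduf, Uqcr, Atp5 or Cox4 to Cox8 (with an a, b, c or i after the number), one of the 4 Sdh genes, Cycs or Cyc1. This gave 87 genes on 97 probe sets, of 14217 named genes and 31042 probe sets. By role, 34 encode subunits of complex I, 6 its assembly factors, 4 complex II, 8 complex III, 16 complex IV and 15 ATP synthase, and 4 are related genes. Probe sets that carry several symbols, 9 of them with a symbol of these families, were not used, and so Cycs and Cox7a2 have no value here.

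The study asked which bone genes respond to dietary blueberry (BB) in rats that lose bone after ovariectomy. Total RNA of Sprague-Dawley females sacrificed on postnatal day (PND) 81 was hybridized to 12 Affymetrix rat genome arrays, 3 per group. An array held RNA pooled in equal parts from 2 to 3 animals, and a group had 8 or more animals. All rats had surgery on PND 60. The STBB OVX rats were ovariectomized and had eaten a diet with 10% BB powder from PND 20 to PND 34 and the casein control diet afterwards, the LTBB OVX rats were ovariectomized and ate the BB diet from PND 20 until sacrifice, the OVX rats were ovariectomized and ate the control diet throughout, and the Sham rats were sham-operated and ate the control diet. The sample labels name femur, and the methods name the right tibia. The deposited values are log2 values centred to a median of 0 over the 12 arrays for every probe set. A value is therefore a log2 difference from that median, and neither a gene's level nor its place above the arrays' background can be read from it.

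Complexes I and II take electrons from NADH and succinate, complex III passes them through cytochrome c to complex IV, and ATP synthase uses the resulting proton gradient to make ATP. Most subunits are encoded in the nucleus and a few in mitochondrial DNA. Several complex IV subunits exist as isoforms: Cox8b, Cox6a2 and Cox7a1 are the forms of heart and skeletal muscle, whereas Cox8a, Cox6a1 and Cox7a2 are found in most tissues. NRF1, the ETS factor GABPA, YY1 and the estrogen-related receptors (ERR) are the regulators best known for binding the promoters of these genes, and muscle genes often carry E-boxes bound by the MyoD family.

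The promoters of the 3 muscle isoforms and of Cox8a, the general counterpart of Cox8b, are shown because these isoforms moved in opposite directions (below). Each is the RefSeq sequence of the rat assembly GRCr8 from 250 bases before to 50 bases after the start of the gene, 5′ to 3′ on the gene's strand, at chr1:205408224-205408523 on the minus strand for Cox8b, chr1:192219667-192219966 on the minus strand for Cox6a2, chr1:94568966-94569265 on the plus strand for Cox7a1 and chr1:213833574-213833873 on the minus strand for Cox8a. Capitals mark matches, on either strand, to any of 5 motifs.
Cox8b: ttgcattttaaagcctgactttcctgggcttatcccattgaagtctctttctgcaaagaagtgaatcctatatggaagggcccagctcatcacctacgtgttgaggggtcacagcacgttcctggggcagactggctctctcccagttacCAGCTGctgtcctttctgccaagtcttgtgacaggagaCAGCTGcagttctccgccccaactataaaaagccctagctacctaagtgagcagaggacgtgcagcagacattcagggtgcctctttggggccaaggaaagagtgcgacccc
Cox6a2: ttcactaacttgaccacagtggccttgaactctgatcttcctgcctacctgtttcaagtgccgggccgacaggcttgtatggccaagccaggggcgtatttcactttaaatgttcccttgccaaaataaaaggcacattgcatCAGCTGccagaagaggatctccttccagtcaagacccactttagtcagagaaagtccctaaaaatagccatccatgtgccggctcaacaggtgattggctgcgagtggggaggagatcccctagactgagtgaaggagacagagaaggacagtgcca
Cox7a1: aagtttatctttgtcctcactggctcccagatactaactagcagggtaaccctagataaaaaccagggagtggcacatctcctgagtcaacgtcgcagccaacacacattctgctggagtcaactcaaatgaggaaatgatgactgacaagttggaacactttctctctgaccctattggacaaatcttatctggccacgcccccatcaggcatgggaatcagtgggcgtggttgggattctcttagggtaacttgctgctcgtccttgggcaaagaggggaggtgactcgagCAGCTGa
Cox8a: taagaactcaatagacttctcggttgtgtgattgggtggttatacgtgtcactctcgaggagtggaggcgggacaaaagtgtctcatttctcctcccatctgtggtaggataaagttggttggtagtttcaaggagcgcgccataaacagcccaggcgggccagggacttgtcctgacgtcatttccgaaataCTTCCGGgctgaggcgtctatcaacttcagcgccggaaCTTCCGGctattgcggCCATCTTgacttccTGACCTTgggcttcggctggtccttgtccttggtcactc
The motifs were GCATGCG (NRF1 core), CCGGAAG (ETS), AAGATGG (YY1), AAGGTCA (ERR) and CAGCTG (muscle E-box). The end of the ETS motif and the start of the YY1 motif share the letters AAG, so that 1 stretch can hold both. All the matches in Cox8b (2), Cox6a2 (1) and Cox7a1 (1) were E-boxes, whereas Cox8a held 2 ETS motifs, 1 YY1 motif and 1 ERR motif and no E-box. No promoter was matched for Cox6a1, so Cox8a is the only general partner shown. Among other general subunits of complex IV, Cox4i1 and Cox7b each held 1 E-box, and Cox5a, Cox5b, Cox6b1, Cox7c and Ndufa4 held none. RefSeq promoters were matched for 78 of the 87 genes. The ETS motif stood in 28.2% of them, against 9.22% of all 27457 promoters, the YY1 motif in 25.6% against 7.30%, the ERR motif in 14.1% against 4.37% and the NRF1 core in 14.1% against 3.54%. The E-box was in 15.4% of them and in 15.1% of all promoters. A match describes the letters in the window and says nothing of binding.

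The 3 Sham arrays lay far from the other 9. Over all genes, 88.7% of the variance fell on the first principal component, and 58.9% of all genes passed the test between OVX and Sham. Markers of several cell types moved with surgery. In OVX against Sham, all 30 skeletal muscle markers fell (median log2 difference -5.96), as did 13 of 14 erythroid markers (median -3.05) and 8 of 8 neutrophil markers (median -2.52), while 11 of 12 osteoblast markers (median 2.48) and 10 of 11 cartilage markers (median 4.64) rose, 5 of 7 osteoclast markers rose and 1 fell, and of 12 adipocyte markers 2 rose and 5 fell. Whether the defining markers of bone were present or absent cannot be read from centred values. Pools of a group differed by a root mean square of 0.164 to 0.182 in STBB OVX, 0.163 to 0.243 in LTBB OVX, 0.162 to 0.214 in OVX and 0.204 to 0.307 in Sham (log2, all genes). Nothing in the data separates surgery from whatever else the Sham arrays share, and with 3 pools a group the p-values rest on the spread among pools.

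Ovariectomy went with lower values of the respiratory chain as a whole. Of the 87 genes, 73 were lower and 5 higher in OVX than in Sham bone and 9 did not pass (limma over all genes, Benjamini-Hochberg adjusted p at 0.05). Of all 14217 genes, 28.6% were called lower and 30.3% higher, so that the 83.9% of the respiratory chain genes called lower stood against a background of fewer than 1 gene in 3. The median log2 difference of the 87 genes was -0.52, or 69.8% of the Sham value, and that of all genes was 0.0047. In 71 of the genes every OVX pool lay below every Sham pool, as in 29.7% of all genes, and in 6 every OVX pool lay above, as in 31.5% of all genes. In whole bone, fewer cells of a type and less RNA per cell cannot be told apart, and the part of the erythroid and neutrophil markers in this fall was not tested. The muscle markers are set beside the subunits further on.

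**Figure D1:**
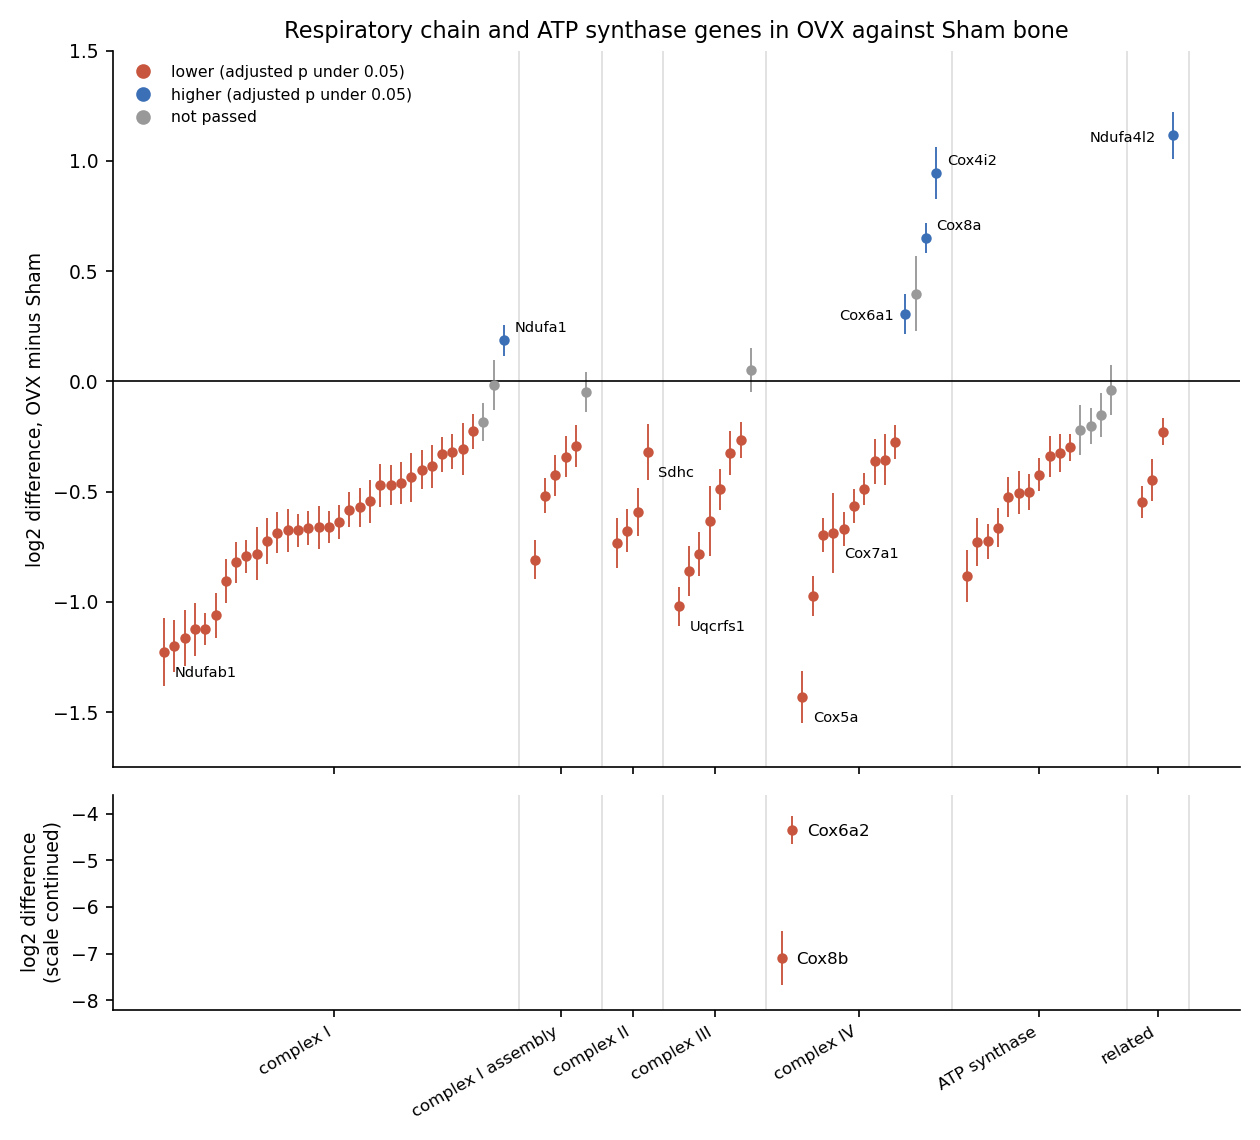
Log2 difference OVX minus Sham (y axis, error bars 1 SE of the limma fit, n = 3 pools per group) of the 87 respiratory chain and ATP synthase genes, ordered within each complex along the x axis; the lower panel continues the y axis at another scale. Most genes of every complex lie below 0, Cox8b and Cox6a2 far below, and the 5 called higher are Ndufa1, Cox6a1, Cox8a, Cox4i2 and Ndufa4l2.

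Complex I, which oxidizes NADH, had the lowest median of the 5 complexes, -0.65, close to the -0.63 of complex II. Of its 34 subunits 31 fell. The 6 catalytic core subunits of complex I measured all fell, with a median of -0.95, or 51.7% of the Sham value, and of its 28 accessory subunits 25 fell, with a median of -0.61. The deepest fall was in Ndufab1, the acyl carrier protein of mitochondria, which had -0.043, -0.028 and -0.083 in the OVX pools, against 0.89, 0.96 and 1.67 in the Sham pools, a log2 difference of -1.23 (SE 0.15, adjusted p = 1.5e-05). Ndufv2, an iron-sulfur subunit of the NADH-binding arm, followed with -0.11, 0.10 and -0.059 in OVX pools and 0.95, 1.06 and 1.53 in Sham pools, a log2 difference of -1.20 (SE 0.12, adjusted p = 1.6e-06). Ndufs7, which carries the last iron-sulfur cluster before ubiquinone, was at -0.044, -0.067 and 0.080 in OVX pools and 0.91, 1.01 and 1.53 in Sham pools, a log2 difference of -1.16 (SE 0.13, adjusted p = 3.7e-06). In these 3 genes the OVX pools lay close together and well below the lowest Sham pool. The 1 subunit that rose was Ndufa1, a small subunit of the membrane arm, at -0.0058, 0.034 and 0.022 in OVX pools and -0.24, -0.24 and -0.027 in Sham pools. Its log2 difference of 0.19 (SE 0.07, adjusted p = 0.0357) no longer passed when any OVX pool, Sham pool 1 or Sham pool 2 was left out, with adjusted p = 0.0584 to 0.12. Ndufc2 and Ndufa3 did not pass, with log2 differences of -0.18 and -0.017, and are named after their values were seen. Of the 6 assembly factors of complex I, 5 fell with a median over the 6 of -0.38, Ndufaf8 most (log2 difference -0.81), and Ndufaf1 did not pass (-0.046).

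Complex II, which is also an enzyme of the TCA cycle, fell in all 4 subunits. Sdhb, its iron-sulfur subunit, was at -0.064, 0.075 and -0.0052 in OVX pools and 0.46, 0.70 and 1.04 in Sham pools, a log2 difference of -0.73 (SE 0.11, adjusted p = 9.7e-05). Sdhd, a membrane anchor, differed by -0.68 and Sdha, the subunit that binds succinate, by -0.59. Sdhc, the other anchor, had -0.046, -0.013 and 0.026 in OVX pools and 0.062, 0.16 and 0.70 in Sham pools, a log2 difference of -0.32 (SE 0.13, adjusted p = 0.0436). The pools did not overlap, but Sham pool 3 carried most of that difference: without it the value was -0.12 (adjusted p = 0.0996). The call was lost in 10 of the 12 fits that left out 1 array.

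In complex III, 7 of 8 subunits fell, with a median of -0.56. Uqcrfs1, the Rieske iron-sulfur protein, had -0.094, 0.037 and -0.013 in OVX pools and 0.85, 0.93 and 1.21 in Sham pools, a log2 difference of -1.02 (SE 0.089, adjusted p = 4.5e-07). Cyc1, cytochrome c1, differed by -0.86, with -0.16, 0.0037 and -0.038 in OVX pools and 0.55, 0.74 and 1.09 in Sham pools. Uqcrc1, a core protein of the complex, differed by -0.78. Each of these genes was lower in every OVX pool than in every Sham pool. Uqcr10, a small subunit, did not pass (log2 difference 0.051, SE 0.10).

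Complex IV, cytochrome c oxidase, held both the widest changes and most of the rises. Of its 16 genes, 12 fell, 3 rose and 1 did not pass. Among the 10 general subunits 8 fell and 2 rose, with a median of -0.53. Cox5a, a nuclear subunit on the matrix side, had -0.19, 0.019 and -0.16 in OVX pools and 1.46, 1.13 and 1.38 in Sham pools, a log2 difference of -1.43 (SE 0.12, adjusted p = 2.3e-07). Cox5b, its neighbour in the complex, differed by -0.97 and Cox4i1, the general form of the regulatory subunit 4, by -0.67.

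The muscle isoforms Cox8b and Cox6a2 fell much further. Cox8b had -2.77, -1.91 and -2.76 in OVX pools and 4.20, 4.50 and 5.14 in Sham pools, a log2 difference of -7.09 (SE 0.57, adjusted p = 2.0e-07), or 0.732% of the Sham value. It was the gene with rank 5 among all genes by size of fall. Cox6a2 had -1.08, -0.61 and -1.13 in OVX pools and 3.04, 3.18 and 4.0 in Sham pools, a log2 difference of -4.35 (SE 0.29, adjusted p = 4.0e-08), or 4.91% of the Sham value, with rank 67. In both genes the gap between the groups was wider than the range within either. Cox7a1 fell far less: it was at 0.31, -0.45 and 0.015 in OVX pools and 0.45, 0.45 and 1.03 in Sham pools, a log2 difference of -0.69 (SE 0.18, adjusted p = 0.0056), which is within the range of the general subunits.

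The general partners Cox8a and Cox6a1 went the other way. Cox8a rose, with 0.056, 0.083 and 0.094 in OVX pools and -0.51, -0.48 and -0.72 in Sham pools, a log2 difference of 0.65 (SE 0.069, adjusted p = 3.0e-06). Cox6a1 was at -0.056, 0.087 and 0.092 in OVX pools and -0.10, -0.21 and -0.48 in Sham pools, a log2 difference of 0.30 (SE 0.09, adjusted p = 0.0104). Without Sham pool 3 the difference of Cox6a1 was 0.20 (adjusted p = 0.0311). Cox8b minus Cox8a, taken within each array, was -2.82, -1.99 and -2.85 in OVX pools and 4.72, 4.98 and 5.86 in Sham pools, a difference of -7.74 (SE 0.58, adjusted p = 1.0e-07 in the limma fit). Cox6a2 minus Cox6a1 was -1.03, -0.70 and -1.22 in OVX pools and 3.15, 3.39 and 4.48 in Sham pools, a difference of -4.65 (SE 0.33, adjusted p = 6.1e-08). Neither pair overlapped between the groups, and the exact two-sided permutation test gave p = 0.1 for both, the smallest that 3 pools against 3 allow.

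Cox4i2 and Ndufa4l2, both known from low oxygen, rose as well. No list of low-oxygen genes was examined, and a part of low oxygen in these rises was not tested. Cox4i2, the form of subunit 4 known from lung and induced by hypoxia in cultured cells, had 0.10, -0.031 and 0.064 in OVX pools and -1.19, -0.65 and -0.87 in Sham pools, a log2 difference of 0.95 (SE 0.12, adjusted p = 1.4e-05). Ndufa4l2, a relative of the complex IV subunit Ndufa4 and a target of hypoxia-inducible factors, had 0.14, -0.15 and -0.027 in OVX pools and -0.93, -1.27 and -1.19 in Sham pools, a log2 difference of 1.12 (SE 0.11, adjusted p = 9.4e-07). Ndufa4 itself fell (-0.35, adjusted p = 0.0195), but this call was lost without OVX pool 1 (adjusted p = 0.0636) or OVX pool 3 (0.0508), in a fit of the OVX and Sham arrays alone (0.0709) and after quantile normalization (-0.13, 0.339). Of the isoforms known from testis, Cox7b2 fell (-0.27) and Cox6b2 did not pass (0.40, SE 0.17).

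**Figure D2:**
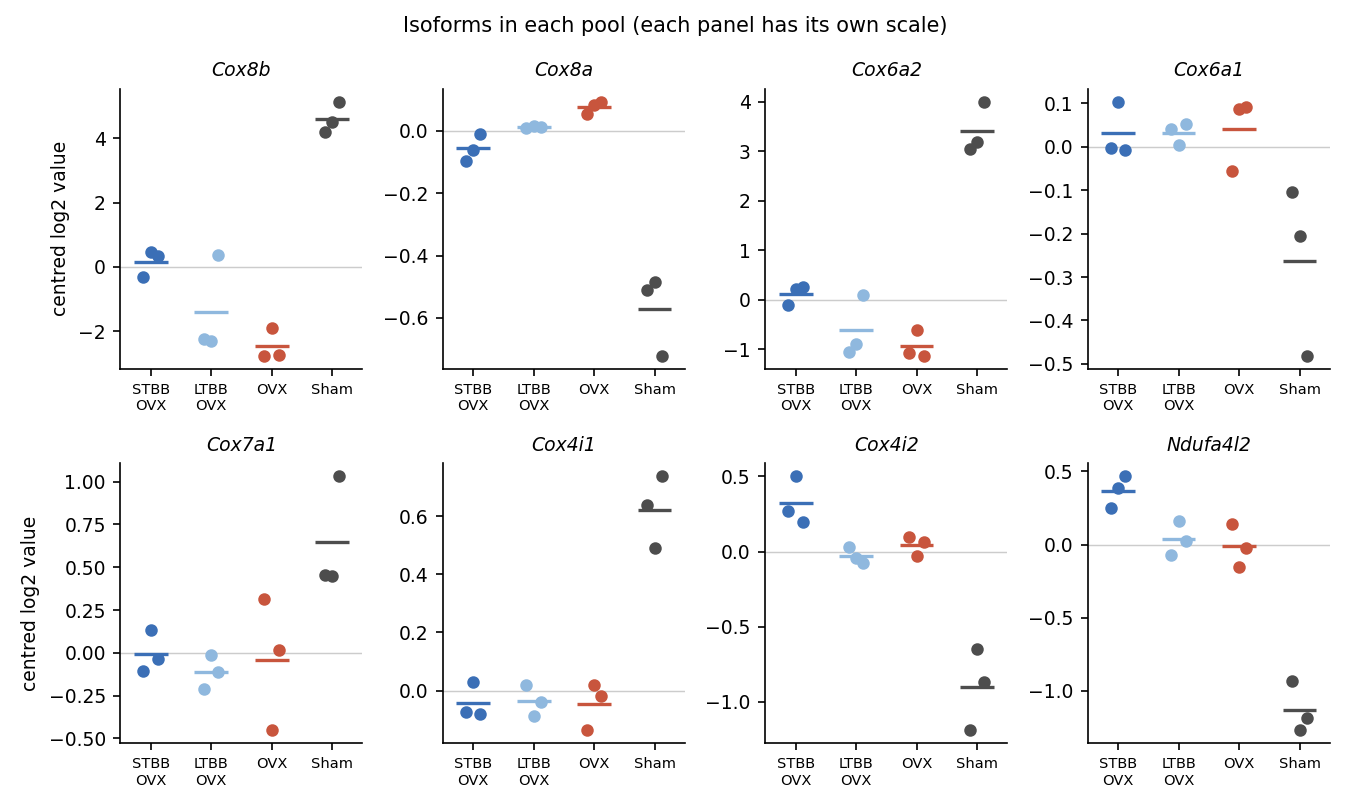
Centred log2 value (y axis) of complex IV isoforms and Ndufa4l2 in each of the 12 pools, by group along the x axis; points are pools, bars are means of 3 pools, and each panel has its own scale. Cox8b and Cox6a2 are highest in the Sham pools, Cox8a, Cox6a1, Cox4i2 and Ndufa4l2 lowest there, and LTBB OVX pool 3 stands with the STBB OVX pools in Cox8b and Cox6a2.

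ATP synthase had the median closest to 0 of the 5 complexes, -0.42, and 11 of its 15 subunits fell and none rose. In the catalytic F1 part 4 of 5 subunits fell, and in the membrane part and stalk 7 of 10. Atp5f1c, the gamma subunit that forms the central shaft, had -0.18, -0.039 and -0.13 in OVX pools and 0.50, 0.72 and 1.08 in Sham pools, a log2 difference of -0.88 (SE 0.12, adjusted p = 2.6e-05). Atp5f1a, the alpha subunit of F1, and Atp5pd, a subunit of the peripheral stalk, both differed by -0.73. Atp5f1e, Atp5pf, Atp5mf and Atp5mg did not pass, with log2 differences of -0.037, -0.22, -0.20 and -0.15. Among the related genes, Atp5if1, the inhibitor of ATP hydrolysis by the enzyme, fell (-0.55), but its 3 probe sets ranged from -0.98 to -0.16. Cox7a2l, which joins complexes into supercomplexes, fell by 0.23 and Cox6c-ps1, a pseudogene whose probe set may also read Cox6c, fell by 0.45.

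Sham pool 3 was the highest of the 3 Sham pools in 76 of the 87 genes, against 31.6% of all genes, and it was also the Sham pool with the highest muscle marker score (4.29, against 3.45 and 3.63). It had the lowest score of the Sham pools in erythroid markers (2.36, against 2.64 and 2.68) and in neutrophil markers (2.14, against 2.74 and 2.51). A part of any of these cell types in the pool's high values was not tested. Without Sham pool 3, 69 of the 87 genes were lower and 5 higher, and the share of all genes was not counted in that fit. The size of the changes also depended on the kind of scaling. Setting the median of each array to 0 left the median of the 87 genes at -0.53, with 28.9% of all genes lower. Quantile normalization of the centred values gives every array the same spread, and it narrowed the differences, that of Cox8b to -4.79. After it 38 genes were lower and 1 higher (Cox8a), with a median of -0.29, while 10.4% of all genes were lower. Cox7a1, Sdhc, Ndufa1, Cox6a1, Cox4i2 and Ndufa4l2 no longer passed there, with adjusted p = 0.4, 0.223, 0.408, 0.197, 0.154 and 0.134 in that order, nor did Cox7a2l, Cox7b2 and Cox6c-ps1 (0.236, 0.236 and 0.198).

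Both BB groups were set against the same Sham arrays, and their values are given beside those of OVX without further comparison. In STBB OVX 73 of the 87 genes were lower and 5 higher than in Sham bone, where 29.0% of all genes were lower and 29.3% higher, and the median was -0.50. In LTBB OVX 70 were lower and 6 higher, where 29.1% of all genes were lower and 29.2% higher, and the median was again -0.50. Of the 73 genes lower in OVX, 72 were lower in STBB OVX and 70 in LTBB OVX. The shared Sham arrays alone make such an overlap likely, and its share over all genes was not counted. Cox8b stood at 4.54% of the Sham value in STBB OVX, 1.55% in LTBB OVX and 0.732% in OVX. Cox6a2 stood at 10.3%, 6.16% and 4.91% in the same order. Cox8a stood at 143%, 150.1% and 157%, above Sham in all 3 groups.

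Between the diets of ovariectomized rats no respiratory chain gene and no other gene passed limma's test (0 of 14217 genes, 0%, in each of the 3 comparisons). At an unadjusted p under 0.05, 4 of the 87 genes and 2.89% of all genes differed in STBB OVX against OVX, 0 and 2.31% in LTBB OVX against OVX, and 4 and 3.40% in STBB OVX against LTBB OVX. There was no overlap between pools in 10 genes higher and 2 lower in STBB OVX than in OVX (4.26% and 5.13% of all genes), in 3 higher and 3 lower in LTBB OVX than in OVX (3.93% and 4.77%) and in 6 higher and 3 lower in STBB OVX than in LTBB OVX (5.3% and 5.63%). The 4 genes were the same in both comparisons: Cox8b, Cox6a2, Cox4i2 and Ndufa4l2, and both comparisons use the STBB OVX arrays. For the 71 subunits other than the tissue isoforms, the log2 differences lay between -0.13 and 0.13 in STBB OVX against OVX and between -0.091 and 0.10 in LTBB OVX against OVX. Their 95% intervals reached at most from -0.36 to 0.39 in STBB OVX and from -0.33 to 0.40 in LTBB OVX. Differences within these bounds are not excluded by the intervals.

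Cox8b and Cox6a2 varied most of the 87 genes among these 9 arrays. Cox8b had -0.33, 0.46 and 0.33 in STBB OVX pools, -2.25, -2.32 and 0.37 in LTBB OVX pools and, as above, -2.77, -1.91 and -2.76 in OVX pools. Every STBB OVX pool was above every OVX pool, and 1 of the 3 LTBB OVX pools was. The log2 difference was 2.63 for STBB OVX against OVX (95% interval 1.39 to 3.87, limma adjusted p = 1) and 1.08 for LTBB OVX against OVX (-0.16 to 2.32, adjusted p = 1). Cox6a2 had -0.10, 0.22 and 0.27 in STBB OVX pools, -1.05, -0.89 and 0.10 in LTBB OVX pools and -1.08, -0.61 and -1.13 in OVX pools. Its log2 difference was 1.07 for STBB OVX (0.43 to 1.71) and 0.33 for LTBB OVX (-0.31 to 0.97). Cox7a1 differed by -0.071 in LTBB OVX against OVX (-0.47 to 0.33), and its OVX pools spanned the pools of both BB groups.

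Within arrays, Cox8b minus Cox8a was -0.23, 0.52 and 0.34 in STBB OVX pools and -2.26, -2.34 and 0.36 in LTBB OVX pools, 2.77 (1.5 to 4.03) and 1.15 (-0.12 to 2.41) above OVX. The exact two-sided permutation test gave p = 0.1 for STBB OVX and p = 0.3 for LTBB OVX. Cox6a2 minus Cox6a1 differed from OVX by 1.08 (0.36 to 1.79) in STBB OVX and by 0.34 (-0.38 to 1.05) in LTBB OVX, with exact permutation p = 0.1 and 0.6. Leaving out LTBB OVX pool 3 changed the calls of Cox8b but not those of Cox6a2. Without it Cox8b passed in STBB OVX against OVX (log2 difference 2.63, limma adjusted p = 0.00482) and in STBB OVX against LTBB OVX (2.44, adjusted p = 0.0227), among 8 of all genes in each. Cox8b minus Cox8a passed as well (adjusted p = 0.0045 and 0.0207). Cox6a2 did not pass there (adjusted p = 0.187 and 0.254), nor did Cox6a2 minus Cox6a1 (0.543 and 0.642), and the difference of Cox6a2 between LTBB OVX and OVX became -0.028. In a fit of the STBB OVX and OVX arrays alone, Cox8b and Cox6a2 passed (limma adjusted p = 0.0143 and 0.0365) among 40 genes in all.

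Ndufa4l2 and Cox4i2 were highest in STBB OVX. Ndufa4l2 had 0.25, 0.39 and 0.47 in STBB OVX pools, -0.071, 0.16 and 0.027 in LTBB OVX pools and 0.14, -0.15 and -0.027 in OVX pools, a log2 difference of 0.38 for STBB OVX against OVX (0.15 to 0.61, limma adjusted p = 1). Cox4i2 had 0.27, 0.50 and 0.20 in STBB OVX pools, 0.031, -0.043 and -0.074 in LTBB OVX pools and 0.10, -0.031 and 0.064 in OVX pools, a log2 difference of 0.28 (0.020 to 0.54, limma adjusted p = 1). In both genes the STBB OVX pools lay above all pools of the other groups, and neither difference passed the test over all genes.

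**Figure D3:**
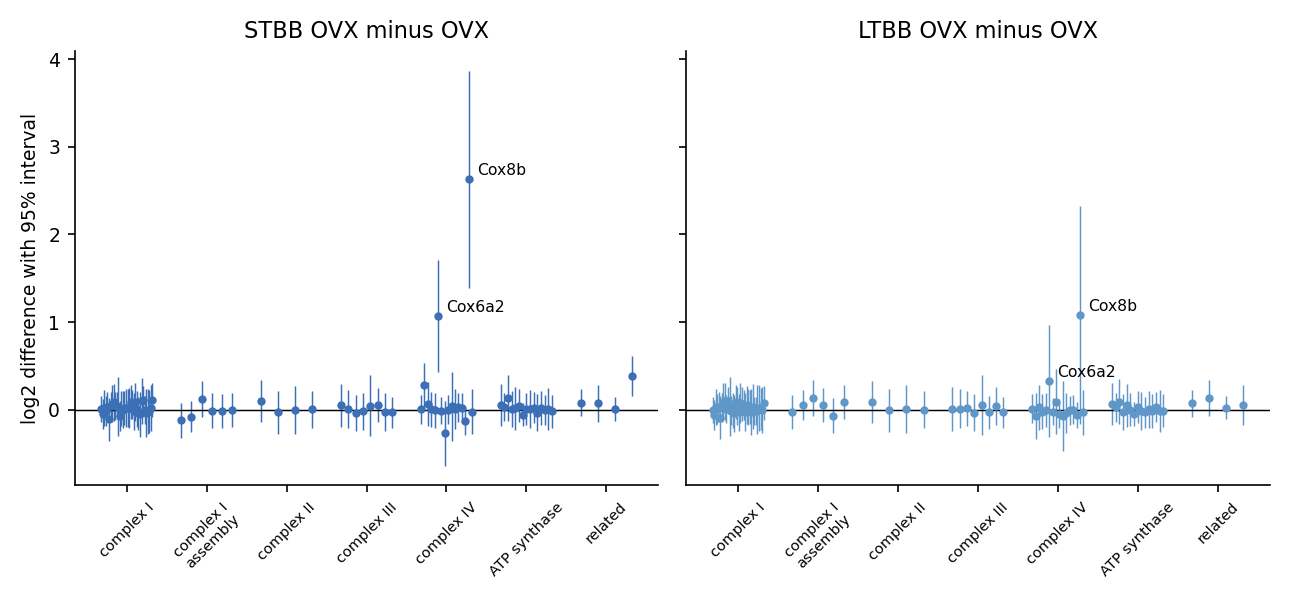
Log2 difference against OVX (y axis, with 95% intervals of the limma fit, n = 3 pools per group) of the 87 genes by complex (x axis), for STBB OVX on the left and LTBB OVX on the right. Cox8b and Cox6a2 stand away from 0 in STBB OVX, with wide intervals, while the general subunits of every complex lie around 0.

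The muscle markers were low and high in much the same pools as Cox8b and Cox6a2. The mean centred value of the 30 muscle markers was -0.13, 0.52 and 0.50 in STBB OVX pools, -1.45, -2.25 and 0.50 in LTBB OVX pools, -1.87, -1.07 and -2.21 in OVX pools and 3.45, 3.63 and 4.29 in Sham pools, and LTBB OVX pool 3 stood with the STBB OVX pools, as it did in Cox8b and Cox6a2. Cox7a1 did not follow them: of the 9 pools of ovariectomized rats it was highest in OVX pool 1 (0.31), where the muscle score was -1.87, and it was at -0.11 in LTBB OVX pool 3. The mean of the 71 subunits without tissue isoforms was -0.040, 0.011 and -0.024 in STBB OVX pools, -0.010, -0.044 and -0.0056 in LTBB OVX pools, -0.082, 0.0042 and -0.012 in OVX pools and 0.38, 0.43 and 0.74 in Sham pools. Among the 9 arrays of ovariectomized rats the general subunits ranged from -0.082 to 0.011 and the muscle markers from -2.25 to 0.52. The highest of these muscle scores, 0.52, was still far below the lowest Sham score, 3.45. With muscle markers this low against Sham in all 9 pools, the range of the subunits cannot show whether they follow muscle RNA. The range over those 9 arrays was 3.23 for Cox8b and 1.4 for Cox6a2, and it had a median of 0.185 over the other 85 genes. With the muscle score as a covariate, 3 of the 87 genes were lower and 0 higher in OVX than in Sham by limma, 11 were at an unadjusted p under 0.05, and 8.74% of all genes were lower. The scores of Sham and of the other groups do not overlap, so that this fit could not tell surgery and muscle RNA apart.

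**Figure D4:**
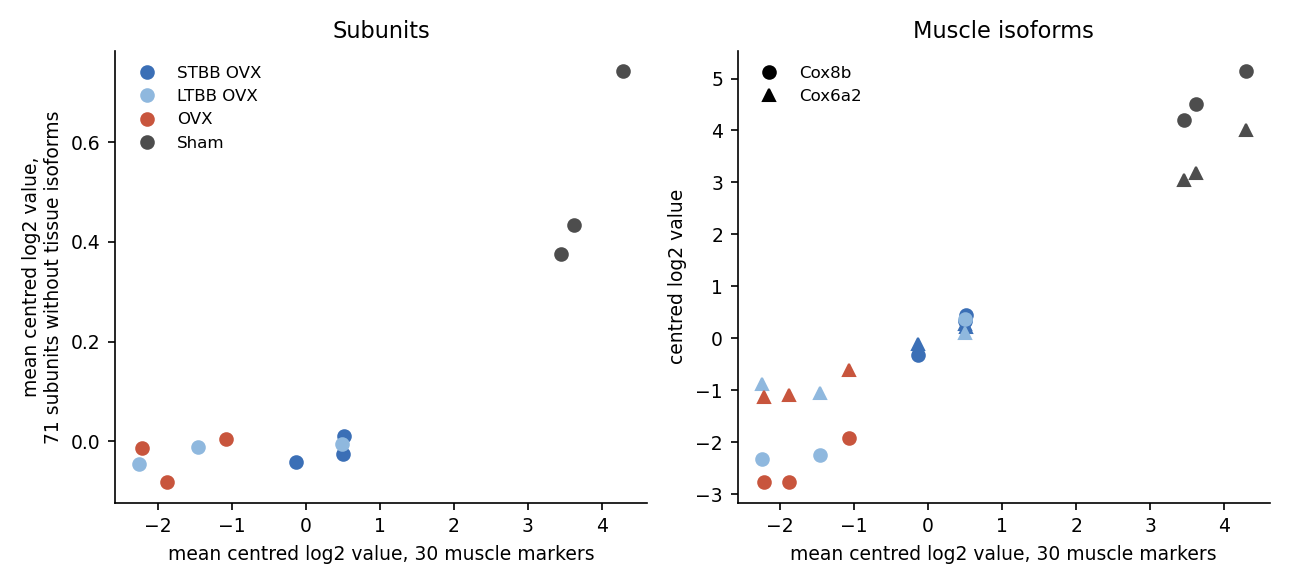
Mean centred log2 value of 30 skeletal muscle markers in each pool (x axis) against the mean centred log2 value of 71 subunits without tissue isoforms (left) and the centred log2 values of Cox8b (circles) and Cox6a2 (triangles, right), coloured by group. The subunits are near 0 in all 9 pools of ovariectomized rats and higher in the 3 Sham pools. Cox8b and Cox6a2 are high and low in much the same pools as the muscle markers, but the order of the pools is not the same throughout. Of LTBB OVX pools 1 and 2, the muscle markers are higher in pool 1 and Cox6a2 in pool 2. All 9 pools lie far below the Sham pools in muscle markers, so the left panel cannot show whether the subunits follow muscle RNA.

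Other mitochondrial genes were counted in lists taken by function, to be read against the 28.6% of all genes lower and 30.3% higher in OVX than in Sham. In OVX against Sham, 13 of 14 enzymes of the TCA cycle fell (median -0.66), Idh3b of the isocitrate dehydrogenase most (-1.26, adjusted p = 1.2e-05), followed by Dlst of the oxoglutarate dehydrogenase (-1.0), and Suclg2, of succinate-CoA ligase, did not pass (-0.093). Of 18 genes of fatty acid oxidation 13 fell and 1 rose (median -0.72). The pair of carnitine palmitoyltransferases split by tissue form: Cpt1b, the muscle form, fell by 3.34 and Cpt1a, the liver form, rose by 0.41, a rise that did not pass after quantile normalization (0.18, adjusted p = 0.354). Acadm, the medium-chain dehydrogenase, fell by 1.63. Among 19 mitochondrial carriers and channels 12 fell and 2 rose (median -0.87). Ckmt2, the creatine kinase of muscle mitochondria, fell by 6.95, and Ucp2, an uncoupling protein, by 1.93. The adenine nucleotide translocases also split, with Slc25a4, the form of muscle and heart, at -1.68 and Slc25a5, the form of proliferating tissues, at 0.77.

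The machinery that builds mitochondria moved less evenly, and the shares of its lists called lower lay nearer to that of all genes. Of 20 regulators of mitochondrial biogenesis 10 fell, 4 rose and 6 did not pass, with a median of -0.16. Esrrg, an estrogen-related receptor of oxidative tissues, fell by 3.20, Ppargc1a, the coactivator PGC-1alpha, by 1.29 and Tfam, which packages mitochondrial DNA, by 0.53, while Tfb1m, which modifies mitochondrial ribosomal RNA, rose by 0.80. Without Sham pool 3 the difference of Ppargc1a was -0.85. Of 35 further assembly factors of the chain 17 fell and 3 rose (median -0.17), led by Nubpl, which delivers iron-sulfur clusters to complex I (-0.85), Cox10 of heme A synthesis (-0.80) and Uqcc3, an assembly factor of complex III (0.39). After quantile normalization none of the 3 passed, Nubpl at -0.097 (adjusted p = 0.894), Cox10 at -0.30 (0.0801) and Uqcc3 at 0.16 (0.305), nor did Tfam at -0.33 (0.106). Of 26 genes of protein import and cristae 15 fell and 1 rose (median -0.24). Mfn2, a fusion protein of the outer membrane, fell by 1.15 and Chchd3, a protein of the cristae junctions, by 1.11. The 1 that rose was Tomm20, an import receptor, at 0.22, and with no call at 0.083 when probe sets open to cross-hybridization were left out and at 0.12 after quantile normalization (adjusted p = 0.443).

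The 2 mitochondrially encoded subunits measured did not show the fall of the nuclear ones. COX1 and COX2, the catalytic subunits of complex IV and the mitochondrial genes measured here, had log2 differences of 0.014 (95% interval -0.12 to 0.15, adjusted p = 0.865) and 0.060 (-0.064 to 0.18, adjusted p = 0.393) in OVX against Sham, against -0.57 for the median nuclear subunit of complexes I to V. No gene of these lists passed between the diets in the fit of all 12 arrays. Ckmt2 had the widest difference there, 2.73 for STBB OVX against OVX (1.25 to 4.21). It passed in the fit of those 2 groups alone (adjusted p = 0.0265) and, without LTBB OVX pool 3, in STBB OVX against OVX (adjusted p = 0.0168) and against LTBB OVX (2.88, adjusted p = 0.0227). As for Cox8b, leaving out that pool did not alter the difference of 2.73 between STBB OVX and OVX.

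**Figure D5:**
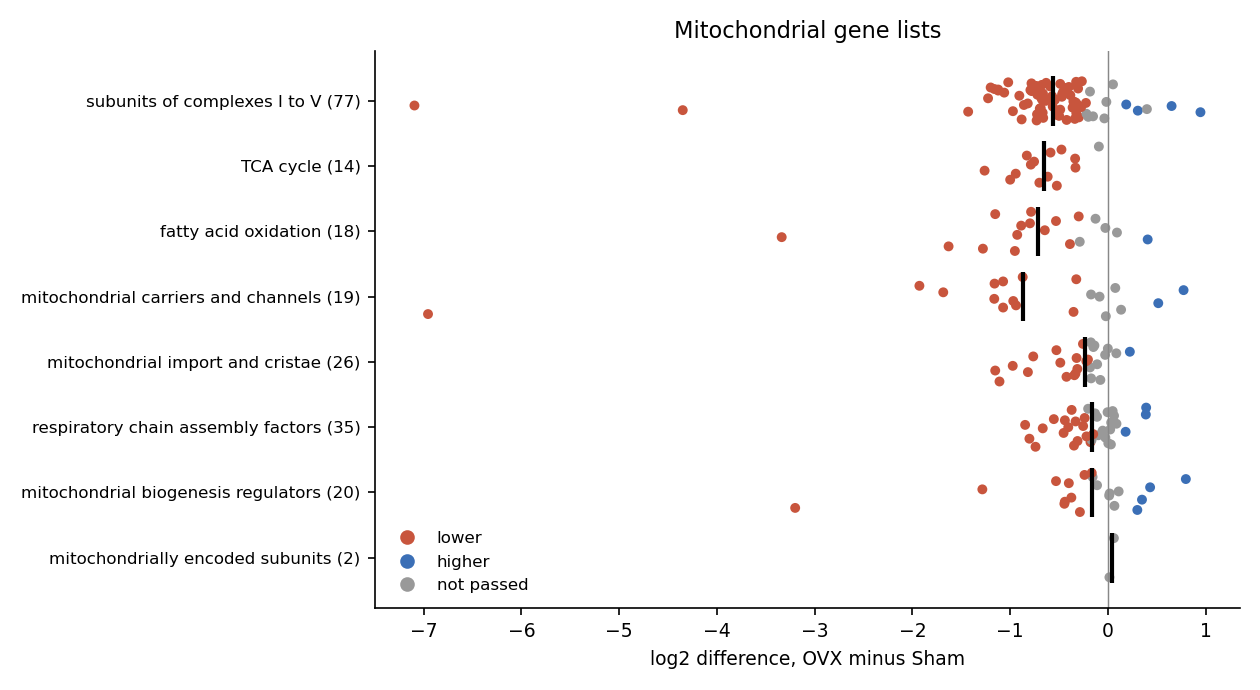
Log2 difference OVX minus Sham (x axis) of each gene in the nuclear subunits and in 7 further mitochondrial lists (rows, with the number of genes); points are genes, coloured by the limma call, and bars are list medians. The subunits, the TCA cycle and fatty acid oxidation lie mostly below 0, while regulators and assembly factors spread on both sides of 0 and the 2 mitochondrially encoded genes lie near 0.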

How the data were processed

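Per the methods, the authors derived log2 values from the arrays by robust multiarray analysis, set the smallest values to a floor in GeneSpring and normalized per chip and per gene; GCOS and RMA stand in the submitters' processing notes. The deposited log2 values have a median of 0 over the 12 arrays for each probe set. Of 31099 probe sets 57 controls were left out; GEO's platform annotation gave 1 symbol to 20826, several to 436 and none to 9780, with 20758 matched by gene ID to RefSeq (GRCr8, names only). A gene is the mean of its probe sets, with no filter on dim ones. Genes were fitted with limma 3.58.1 in R 4.3.3 as 4 group means over 12 arrays, with Benjamini-Hochberg adjustment at 0.05 and 95% intervals; isoform differences were added rows, making 14219, and were also compared by exact two-sided permutation. Cox7a1 minus Cox7a2 could not be formed. On simulated data of 14217 genes, 200 of them changed, the fit recovered 68% of log2 changes of 0.5 and 98% of log2 changes of 1 for OVX against Sham, 76% and 96% for LTBB OVX against OVX, and 70% and 94% for STBB OVX against OVX. False calls numbered 9, 7 and 6 in that order. The simulation gave each gene 1 spread for all groups. In the data 58.9% of all genes passed between OVX and Sham, so that the simulated rates do not carry over to that comparison. Between the diets 0 of 14217 genes passed. The simulated rates hold for 200 changed genes, and the number changed by diet is not known. They are therefore not the power of the diet comparisons. The number of arrays limits the precision. Members and lists were chosen with earlier results of these data known. Named genes are the isoform families, Cyc1, the Sdh genes, up to 3 members with the largest rise and fall per complex, members called against their complex, and up to 4 genes of each list with the largest changes or at the ends of its range; others, such as Cox5b, Ndufa4, members that did not pass and assembly factors, were named after their values were seen. Alternatives varied the scaling, weights, arrays, probe sets, variance model, fold, muscle covariate and replicate block. Figures used matplotlib 3.10.9 in Python 3.11.15.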

Additional observations from a re-analysis of the deposited data

How the results depend on the processing

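The number of arrays, 3 per group, and the distance of the Sham arrays from all others limit these results. In OVX, STBB OVX and LTBB OVX against Sham more of the 87 genes were lower than higher under all alternatives, but the counts changed. Of the 87 genes, OVX had 38 lower and 1 higher after quantile normalization, 3 lower and 0 higher with the muscle score as a covariate, and 37 lower and 3 higher at a fold of at least 1.5. STBB OVX had 27 lower and 2 higher, 23 lower and 3 higher, and 38 lower and 2 higher under the same settings, and LTBB OVX had 33 lower and 2 higher, 5 lower and 1 higher, and 34 lower and 3 higher. After quantile normalization 10.4% of all genes were lower in OVX, 10.9% in STBB OVX and 10.5% in LTBB OVX. With the covariate these shares were 8.74%, 16.3% and 11%, and the genes here did not exceed them in OVX and LTBB OVX. Of all 14217 genes, 1537, 1589 and 1699 were higher after quantile normalization and 1471, 2401 and 1742 with the covariate. No share of all genes was counted at the fold of 1.5. The cause of these changes in count was not tested. Quantile normalization called 3010 and the covariate 2713 of all genes between OVX and Sham, against 8367. Leaving out 1 array at a time gave 68 to 76 lower and 4 to 6 higher in OVX, 68 to 75 lower and 3 to 5 higher in STBB OVX (3 without STBB OVX pool 2), and 67 to 74 lower and 4 to 6 higher in LTBB OVX. No share of all genes was counted in these fits against Sham. Between the diets, leaving out 1 array gave 0 to 1 of the 87 genes in STBB OVX against OVX and in STBB OVX against LTBB OVX. The 1 gene was Cox8b without LTBB OVX pool 3, where 8 of all genes passed in each of these 2 comparisons. In LTBB OVX against OVX the range was 0 to 0. A fit of 2 groups gave 2 of the 87 genes in STBB OVX against OVX, among 40 of all genes. Cox8b minus Cox8a ranged from -8.02 to -7.41 in OVX against Sham, from 2.61 to 3.05 in STBB OVX against OVX, from 0.26 to 1.61 in LTBB OVX against OVX and from 1.16 to 2.51 in STBB OVX against LTBB OVX. Cox6a2 minus Cox6a1 ranged from -4.92 to -4.25, from 0.96 to 1.22, from -0.0094 to 0.56 and from 0.52 to 1.09 in the same comparisons. With 2 groups fitted, Cox8b minus Cox8a was 2.77 (adjusted p = 0.0112) and Cox6a2 minus Cox6a1 was 1.08 (adjusted p = 0.0293) in STBB OVX against OVX.

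Values that changed sign all belonged to differences that had not passed, except Nubpl (0.29 with the covariate, adjusted p = 0.694). With the covariate Ndufc2 was 0.23, Ndufa3 0.052, Ndufaf1 0.13, Atp5f1e 0.17 and Atp5pf 0.11; after quantile normalization Ndufa3 was 0.062 and Ndufaf1 0.041; with array weights Ndufa3 was 0.13 and Atp5f1e 0.11. With 1 array left out at a time Ndufa3 ranged from -0.12 to 0.15, Ndufaf1 from -0.11 to 0.033, Uqcr10 from -0.068 to 0.17, Atp5f1e from -0.13 to 0.13 and COX1 from -0.013 to 0.068 in OVX against Sham, and Cox6a2 from -0.028 to 0.55, Ndufa4l2 from -0.018 to 0.13 and Ckmt2 from -0.15 to 1.43 in LTBB OVX against OVX. Of the 62 genes named for OVX against Sham 50 had passed. Of these 50 calls, 16 were lost after quantile normalization, 42 with the covariate and 12 at a fold of at least 1.5. Under the other settings the calls lost were those of Sdhc, Ndufa1, Ndufa4 and Tomm20. The pool numbers do not pair the arrays: correlations of deviations between arrays of the same number ran from -0.38 to 0.23. With the number as a replicate block 8196 of all genes passed between OVX and Sham, and among the named genes Ndufa1 lost its call (0.19, adjusted p = 0.0586).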
